A study of Homo sapiens with 8 samples.

Results

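Serpins are a superfamily of proteins that mostly inhibit serine or cysteine proteases. An inhibitory serpin offers the protease an exposed loop as bait, and once the loop is cut the serpin changes shape and holds the enzyme in a covalent complex, so that each inhibitor molecule is used up in 1 reaction. Members are grouped in clades, named by the letter that follows SERPIN in the symbol, and a few, such as SERPINH1 and SERPINF1, do not inhibit proteases. In neural tissue the family is known for the control of plasminogen activators, the proteases PLAT and PLAU that turn plasminogen into plasmin at the cell surface and the matrix. The genes described here are protein-coding genes whose symbol is SERPIN followed by a clade letter from A to I and a number. They are 34 of the 60659 genes of the count table, of which 19919 are protein-coding.

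RNA was measured in the human neuroblastoma line SK-N-SH, as total RNA after removal of ribosomal RNA, in 4 groups of 2 libraries that the labels call biological replicates. Every group received all-trans retinoic acid (ATRA) at 10 µM for 24 h. The overexpression experiment compared cells carrying FLAG-tagged ZMYND8, a chromatin reader, with parental cells, each given doxycycline (Dox). According to the methods the FLAG-ZMYND8 cells were transduced with a lentivirus in which doxycycline switches the gene on, and were selected with G418, so that the parental cells lack the vector and the selection. The knockdown experiment compared ZMYND8 knockdown cells with KD control cells, both without doxycycline in their labels. How the knockdown was made in SK-N-SH cells was not given in the sources used here, since the methods describe short hairpin RNA for other cells. The experiments share no control libraries.

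Each library held between 38316523 and 56256979 counts on genes. ZMYND8 had 3089 and 3612 counts in parental libraries, 220691 and 182849 in overexpression libraries, 3128 and 3374 in KD control libraries and 1641 and 1640 in knockdown libraries. The knockdown was thus partial. Levels are given as CPM, the counts scaled to the normalised library size, and levels of different genes are compared as CPM per kilobase of exon. A call required 3 things, a Benjamini-Hochberg adjusted p below 0.05 over all genes in edgeR's quasi-likelihood test, a log2 fold change of 1 or more in either direction, and more than 20 normalised counts on average. Markers of the cell states of neuroblastoma moved with overexpression. The summed CPM of 14 adrenergic markers was 653 to 675 in parental and 1637 to 1722 in overexpression libraries, and 1531 to 1625 in KD control and 1218 to 1403 in knockdown libraries. The summed CPM of 13 mesenchymal markers was 10939 to 11510 in parental, 4075 to 4318 in overexpression, 6499 to 6648 in KD control and 7646 to 8135 in knockdown libraries. Of the 13 adrenergic markers tested in overexpression 9 were called higher and 1 lower, and of the 13 mesenchymal markers 1 higher and 7 lower. Over all genes tested there, 11.8% were called higher and 6.84% lower. In knockdown edgeR and DESeq2 called none of either list, with 6 of 12 adrenergic and 11 of 13 mesenchymal markers at an unadjusted p below 0.05. The mesenchymal markers did not move together there. The mean of COL1A1 rose from 1604 to 2283 CPM and that of VIM from 852 to 1177 CPM. PRRX1 fell from 129 to 65.4 CPM (log2 fold change -0.98, SE 0.0490, adjusted p = 8.13e-07, edgeR). SNAI2, TWIST1 and NOTCH2 also had negative log2 fold changes, and the other mesenchymal markers positive ones. The part of these states in the serpin results was not tested, and in bulk RNA fewer cells of a type and less RNA per cell cannot be told apart. The labels call the cells epithelial, but the defining epithelial gene CDH1 had 0 counts in all KD control and knockdown libraries, 0 and 1 in parental and 12 and 8 in overexpression libraries. KRT8, KRT18 and KRT19 were present and called lower in overexpression, and the summed CPM of 7 epithelial markers was 468 to 471 in parental and 172 to 227 in overexpression libraries. Of the other cell types that make serpins, 6 hepatocyte markers reached at most 0.499 summed CPM in any library, with TTR and FGB at 0 counts throughout. The summed CPM of 6 leukocyte markers was at most 2.65, with AIF1 at 0 counts in every library, and of these CSF1R was called lower in overexpression and higher in knockdown.

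Most of the 34 serpins lie in clusters of neighbouring genes. With less than 500 kb between neighbours, 10 genes of clade A form a cluster of 344 kb on chromosome 14 of GRCh38 from 94280460 to 94624055, where SERPINA10, SERPINA6, SERPINA2, SERPINA1, SERPINA11, SERPINA9, SERPINA12, SERPINA4, SERPINA5 and SERPINA3 follow each other. Another 10, of clade B, form a cluster of 543 kb on chromosome 18 from 63476958 to 64019779, in the order SERPINB5, SERPINB12, SERPINB13, SERPINB4, SERPINB11, SERPINB3, SERPINB7, SERPINB2, SERPINB10 and SERPINB8. The remaining 3 genes of clade B, SERPINB1, SERPINB9 and SERPINB6, lie within 140 kb on chromosome 6 from 2832332 to 2972165. SERPINI2 and SERPINI1 lie on chromosome 3, SERPINF2 and SERPINF1 on chromosome 17, and the other 7 genes stand alone.

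The promoters of 5 serpins are shown because the results turn on them. SERPINB7 and SERPINB9 were called in opposite directions by overexpression and knockdown, SERPINB2 had the largest decrease among the tested serpins and SERPINA5 the largest increase in overexpression, and SERPINI1 was the serpin called lower in knockdown. The sequences are from RefSeq on GRCh38.p14, whose table held 27 of the 34 serpins and 12 of the 14 that had enough counts to be tested. They are the 250 bases before the start, or the part of them before the first annotated exon base, read on the strand of the gene. The windows are chr18:63752807-63752934 on the plus strand for SERPINB7, chr6:2903310-2903559 on the minus strand for SERPINB9, chr18:63887455-63887704 on the plus strand for SERPINB2, chr14:94581176-94581390 on the plus strand for SERPINA5 and chr3:167735471-167735720 on the plus strand for SERPINI1. Capitals mark matches on either strand to 6 motifs, the TATA box TATAAA, the AP-1 site TGAGTCA, the GC box GGGCGG, the CCAAT box CCAAT, the nuclear receptor hexamer AGGTCA and the E-box CACGTG.
SERPINB7: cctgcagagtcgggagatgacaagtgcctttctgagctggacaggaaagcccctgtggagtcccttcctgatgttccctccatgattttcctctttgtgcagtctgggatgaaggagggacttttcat
SERPINB9: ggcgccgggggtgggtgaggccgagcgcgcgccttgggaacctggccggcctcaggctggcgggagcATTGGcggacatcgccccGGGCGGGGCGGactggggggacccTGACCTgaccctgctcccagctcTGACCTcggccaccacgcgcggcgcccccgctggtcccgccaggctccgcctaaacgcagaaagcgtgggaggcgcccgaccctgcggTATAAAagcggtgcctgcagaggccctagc
SERPINB2: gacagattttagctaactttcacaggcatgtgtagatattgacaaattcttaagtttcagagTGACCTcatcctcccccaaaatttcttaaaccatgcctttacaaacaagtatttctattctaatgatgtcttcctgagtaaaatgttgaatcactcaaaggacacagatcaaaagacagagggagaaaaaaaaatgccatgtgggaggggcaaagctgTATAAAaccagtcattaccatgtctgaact
SERPINA5: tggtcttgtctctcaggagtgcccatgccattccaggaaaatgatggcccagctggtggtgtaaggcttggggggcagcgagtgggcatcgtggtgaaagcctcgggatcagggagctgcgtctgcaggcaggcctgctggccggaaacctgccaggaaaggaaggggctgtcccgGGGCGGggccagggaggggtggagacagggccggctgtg
SERPINI1: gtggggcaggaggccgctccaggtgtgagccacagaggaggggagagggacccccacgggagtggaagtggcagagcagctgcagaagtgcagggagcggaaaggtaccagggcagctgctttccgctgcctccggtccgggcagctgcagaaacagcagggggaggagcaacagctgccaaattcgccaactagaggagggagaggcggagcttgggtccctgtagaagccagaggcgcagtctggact
SERPINB2 and SERPINB9 each have a TATAAA whose first base lies 30 bases before the RefSeq start. SERPINB9 also holds overlapping GC boxes that begin 165 and 160 bases before its start, a CCAAT box on the other strand at 183, and AGGTCA on the other strand, read as TGACCT, at 141 and 118. SERPINB2 has TGACCT at 188, and SERPINA5 has a GC box at 74. None of the 6 motifs was found in the windows of SERPINB7 and SERPINI1. Over all 35116 promoters of the table TATAAA was found in 10.7%, AGGTCA in 12.1%, GGGCGG in 42.6%, CCAAT in 32.0%, CACGTG in 6.345% and TGAGTCA in 4.20%. Among the 27 serpin promoters, TATAAA was found in 5, AGGTCA in 6, GGGCGG in 7, CCAAT in 6, CACGTG in 1 and TGAGTCA in 2. These matches describe letters and not binding. The RefSeq start of SERPINA5 lies 19984 bases, that of SERPINB2 16013 bases and that of SERPINI1 478 bases from the gene start in the count table. For these genes the table thus holds further starts, and the counts do not show which was used. The windows shown for them lie inside the span of the gene in the table. They do not cover the bases before its start there.

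Of the 34 serpins, 14 had enough counts to be tested, the same 14 in each comparison. They are 3 of 11 genes of clade A, 6 of 13 of clade B, 1 of 2 of clade E, 1 of 2 of clade F, 1 of 2 of clade I and the only genes of clades G and H. SERPINC1, which encodes antithrombin, and SERPIND1, which encodes heparin cofactor, are the only genes of clades C and D and were not tested. Among the other 20 serpins, 8 had 0 counts in all 8 libraries and 12 had counts that never exceeded 7 in a library. For SERPINA10, SERPINA6, SERPINF2 and SERPINA2, 93.6% to 100% of the 31-base sequences in their exons also occur on alternate contigs of GRCh38. For SERPINB3 and SERPINB4, 70.2% and 34.3% of the 31-base sequences in their exons also occur in another serpin, the highest such shares among the serpins. Reads of all these genes may have gone uncounted, so their low counts do not show that the RNA was absent. In the cluster on chromosome 14 SERPINA1, SERPINA5 and SERPINA3 were tested, and in the cluster on chromosome 18 SERPINB7, SERPINB2 and SERPINB8, whereas all 3 genes of the cluster on chromosome 6 were. SERPINA3 had 2 to 20 counts per library, and its mean stayed below the threshold for a call.

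SERPINH1 was the most abundant of these serpins in every group on the scale of CPM per kb. Its mean level was 52.7 CPM per kb in parental, 31.7 in overexpression, 34.4 in KD control and 37.2 in knockdown cells. SERPINB7 and SERPINF1 followed in parental cells at 38.4 and 37.0 CPM per kb, and SERPINB1 and SERPINE2 both stood at 24.6. SERPINB6 and SERPINI1 had 7.30 and 7.09 CPM per kb there, and the other tested serpins between 0.0800 for SERPINA3 and 3.71 for SERPINB9. In each of the 3 neighbouring pairs, SERPINB7 with SERPINF1, SERPINB1 with SERPINE2 and SERPINB6 with SERPINI1, the mean levels in parental cells lay close together on this scale. Their order was not tested. The length used is that of all annotated exons of a gene, which can exceed that of the RNA made. Ranks and shares on this scale depend on it. In CPM, SERPINB6 and SERPINI1 stood apart in parental cells, at 96.3 and 15.1, on exon lengths of 13201 and 2128 bases.

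**Figure D1:**
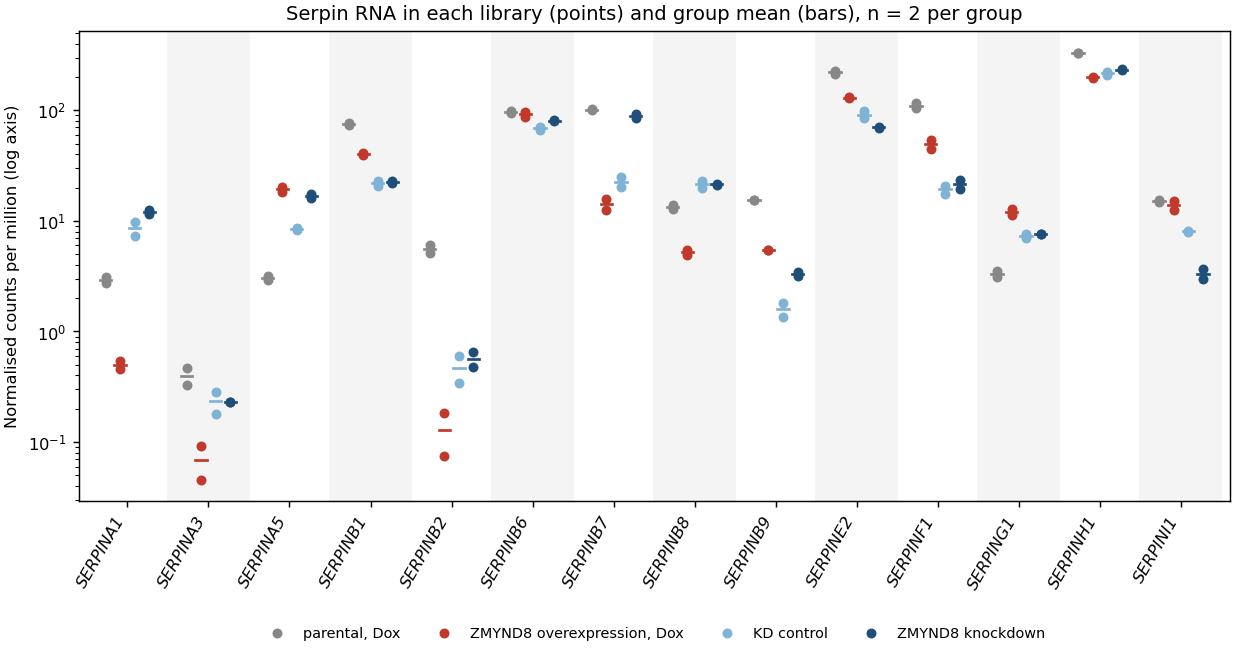
CPM (logarithmic axis) of the 14 tested serpins in each library. Points are libraries, bars are the means of the 2 libraries of a group, and SERPINH1 stands highest in all 4 groups while SERPINB2 is highest in parental cells.

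The summed level of these serpins was 199 and 205 CPM per kb in parental, 104 and 105 in overexpression, 87.7 and 83.0 in KD control and 115 and 113 in knockdown libraries. The sum was thus lower in overexpression than in parental libraries and higher in knockdown than in KD control libraries. The mean of SERPINB7 alone went from 8.59 in KD control to 33.9 CPM per kb in knockdown cells, which was most of the rise of the sum. As a share of this sum, SERPINH1 made up 26.3% and 25.9% in parental, 30.8% and 29.9% in overexpression, 40.3% and 40.4% in KD control and 32.9% and 32.3% in knockdown libraries. SERPINB7 made up 19.5% and 18.5% in parental, 5.78% and 4.56% in overexpression, 10.8% and 9.29% in KD control and 30.7% and 28.8% in knockdown libraries. Its share came close to that of SERPINH1 in knockdown cells and was far below it in overexpression cells. SERPINF1 made up 17.6% and 19.1% in parental, 14.5% and 17.4% in overexpression, 6.74% and 8.42% in KD control and 5.63% and 6.93% in knockdown libraries.

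**Figure D2:**
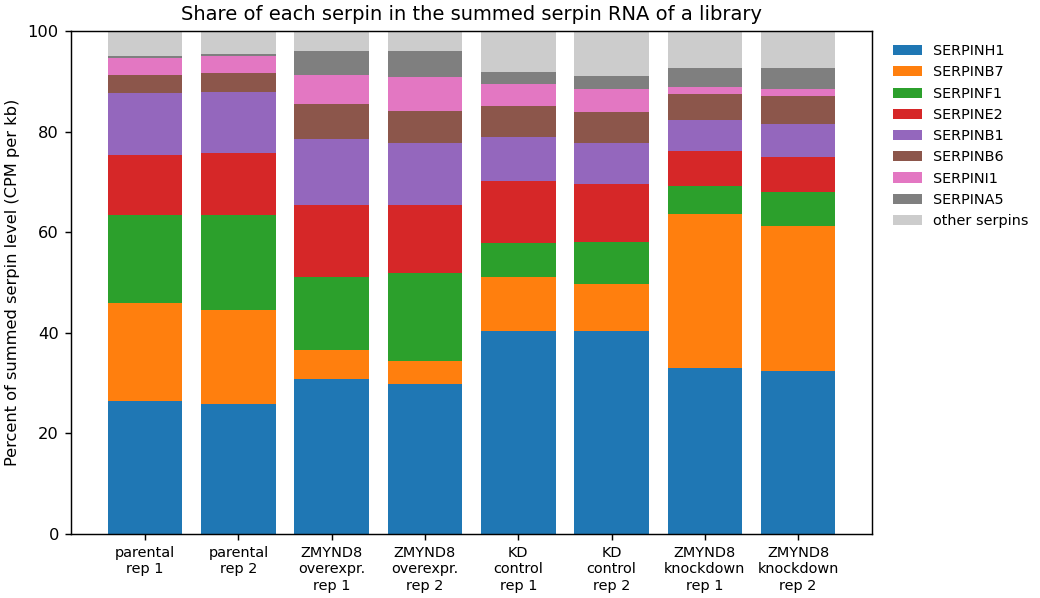
Share of each serpin in the summed serpin level (CPM per kb) of each of the 8 libraries, in percent. SERPINB7 takes 18.5% to 19.5% in parental and 4.56% to 5.78% in overexpression libraries, and 28.8% to 30.7% in knockdown libraries.

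The comparison of ZMYND8 overexpression with parental cells asks how the RNA responds to ectopic ZMYND8 during ATRA treatment. SERPINA5 and SERPING1 were called higher, and SERPINB2, SERPINB7, SERPINA1, SERPINB9, SERPINB8 and SERPINF1 were called lower, so that 2 of the 14 tested serpins rose and 6 fell. Over all 20835 genes tested, 11.8% were called higher and 6.84% lower. The median log2 fold change was -1.015 over the 14 serpins and 0.03 over all genes tested. Of the 6 tested serpins that were not called, SERPINB1, SERPINE2 and SERPINH1 were lower at an adjusted p below the threshold but by less than the fold required. SERPINA3 missed the call by its low counts, and SERPINB6 and SERPINI1 had an adjusted p above the threshold.

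SERPINB2, SERPINE2 and SERPINI1, which inhibit plasminogen activators, differed among themselves. They are not the only such serpins, since SERPINA5, called higher and described below with clade A, can inhibit PLAU as well. SERPINB2 (ENSG00000197632, chromosome 18 from 63871692 to 63903888), an inhibitor of PLAU that is largely kept inside the cell, had 258 and 267 counts in the parental and 4 and 8 in overexpression libraries. Both overexpression libraries lay far below both parental libraries, with a log2 fold change of -5.47 (SE 0.295, adjusted p = 6.76e-08, edgeR) or 44.3-fold. With so few counts the size of the decrease is uncertain, and the log2 fold change was -4.92 without ZMYND8 overexpression Dox replicate 1 and -6.17 without replicate 2. SERPINB2 shares 19.96% of its exon bases with SERPINB10 on the same strand, and SERPINB10 itself had 7 and 7 counts in the parental and 0 and 2 in overexpression libraries, too few to be tested. SERPINE2 (ENSG00000135919, chromosome 2 from 223975045 to 224039318), a nexin of glia and fibroblasts that inhibits thrombin and PLAU, had 9145 and 11647 parental counts and 7140 and 5636 overexpression counts. Its level was 220 ± 7.15 against 130 ± 3.29 CPM (SD, n = 2), a log2 fold change of -0.75 (SE 0.0507, adjusted p = 4.19e-07, edgeR) that did not reach the fold of a call. SERPINI1 (ENSG00000163536, chromosome 3 from 167735243 to 167825569), or neuroserpin, which inhibits PLAT in the nervous system, had 14.8 and 15.4 CPM in parental and 12.7 and 15.0 CPM in overexpression libraries. These values overlapped, and the log2 fold change was -0.12 (SE 0.0969, adjusted p = 0.309, edgeR).

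Members of clade B lack a classical secretion signal and mostly act inside cells, where they guard against leaked proteases. SERPINB7 (ENSG00000166396, chromosome 18 from 63752935 to 63805376), known from kidney mesangial cells and skin, had 4349 and 5174 counts in parental and 850 and 555 in overexpression libraries. Its level fell from 101 ± 1.59 to 14.2 ± 2.25 CPM (SD, n = 2), a log2 fold change of -2.82 (SE 0.0861, adjusted p = 1.06e-09, edgeR). SERPINB9 (ENSG00000170542, chromosome 6 from 2887270 to 2903309), the inhibitor of granzyme B, had 655 and 792 parental counts against 294 and 241, a log2 fold change of -1.48 (SE 0.0965, adjusted p = 3.05e-07, edgeR). SERPINB8 (ENSG00000166401, chromosome 18 from 63970029 to 64019779), which inhibits furin, had 544 and 719 parental counts against 296 and 217, a log2 fold change of -1.35 (SE 0.110, adjusted p = 1.78e-06, edgeR). In all 3 genes both overexpression libraries lay below both parental libraries. SERPINB8 shares 6.42% of its exon bases with HMSD on the same strand, and HMSD had at most 1 count in any library.

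SERPINB1 (ENSG00000021355, chromosome 6 from 2832332 to 2841959), an inhibitor of neutrophil proteases, was at 75.0 ± 1.62 CPM in parental and 40.4 ± 1.12 CPM in overexpression libraries (SD, n = 2), from 3136 and 3933 counts against 2216 and 1743. The log2 fold change of -0.88 (SE 0.0528, adjusted p = 1.55e-07, edgeR) stayed under the fold threshold. SERPINB6 (ENSG00000124570, chromosome 6 from 2948159 to 2972165), an inhibitor of cathepsin G, was at 96.3 ± 3.28 CPM in parental and 92.1 ± 6.59 CPM in overexpression libraries (SD, n = 2), with 3993 and 5097 counts against 5204 and 3847. The libraries of the groups overlapped, and the log2 fold change was -0.06 (SE 0.0601, adjusted p = 0.454, edgeR). Among the 3 neighbours on chromosome 6 the log2 fold changes thus ranged from -1.48 to -0.06, with the called gene SERPINB9 lying between the other two.

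The tested genes of clade A, which are best known as plasma proteins made by the liver, moved in opposite directions. SERPINA5 (ENSG00000188488, chromosome 14 from 94561442 to 94593118), the protein C inhibitor, had 136 and 152 counts in the parental and 987 and 892 in overexpression libraries. Its level rose from 3.07 ± 0.184 to 19.3 ± 1.36 CPM (SD, n = 2), a log2 fold change of 2.66 (SE 0.109, adjusted p = 8.58e-09, edgeR) or 6.33-fold. SERPINA1 (ENSG00000197249, chromosome 14 from 94376747 to 94390693), the inhibitor of neutrophil elastase in plasma, had 131 and 142 parental counts and 29 and 20 overexpression counts. It fell from 2.92 ± 0.237 to 0.497 ± 0.0598 CPM (SD, n = 2), a log2 fold change of -2.53 (SE 0.225, adjusted p = 3.59e-06, edgeR). These members of the same cluster thus moved apart, and for neither did the groups overlap. SERPINA3 (ENSG00000196136, chromosome 14 from 94612384 to 94624055), an inhibitor of cathepsin G, had 20 and 17 counts against 5 and 2, with a log2 fold change of -2.42 (SE 0.552, adjusted p = 0.00318, edgeR) on a mean of 11.2 normalised counts. It shares 31.7% of its exon bases with the unnamed gene ENSG00000273259, so its few counts are uncertain. Of the 31-base sequences in the exons of SERPINA1, 96.0% also occur on alternate contigs of GRCh38, which can keep its reads from being counted. Whether such a loss was alike in all libraries was not tested. The share was 29.6% for SERPINF1 and at most 10.8% for the other tested serpins.

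Of the remaining serpins, 1 rose. SERPING1 (ENSG00000149131, chromosome 11 from 57597387 to 57619171), which inhibits the complement proteases C1R and C1S, had 149 and 161 counts in parental and 614 and 559 in overexpression libraries. Its level rose from 3.31 ± 0.277 to 12.1 ± 0.911 CPM (SD, n = 2), a log2 fold change of 1.88 (SE 0.121, adjusted p = 2.85e-07, edgeR). SERPINF1 (ENSG00000132386, chromosome 17 from 1762029 to 1777565), a secreted factor that restrains blood vessel growth and does not inhibit proteases, had 4440 and 6031 parental counts and 2421 and 2398 overexpression counts. It fell from 111 ± 8.62 to 49.7 ± 6.71 CPM (SD, n = 2), a log2 fold change of -1.15 (SE 0.0858, adjusted p = 9.08e-07, edgeR). SERPINH1 (ENSG00000149257, chromosome 11 from 75562056 to 75572783), the collagen chaperone of the endoplasmic reticulum, had 13964 and 17205 parental counts against 10804 and 8664. The corresponding levels were 331 ± 2.99 and 198.9 ± 2.80 CPM (SD, n = 2), and the log2 fold change of -0.73 (SE 0.0471, adjusted p = 2.99e-07, edgeR) was under the fold of a call.

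**Figure D3:**
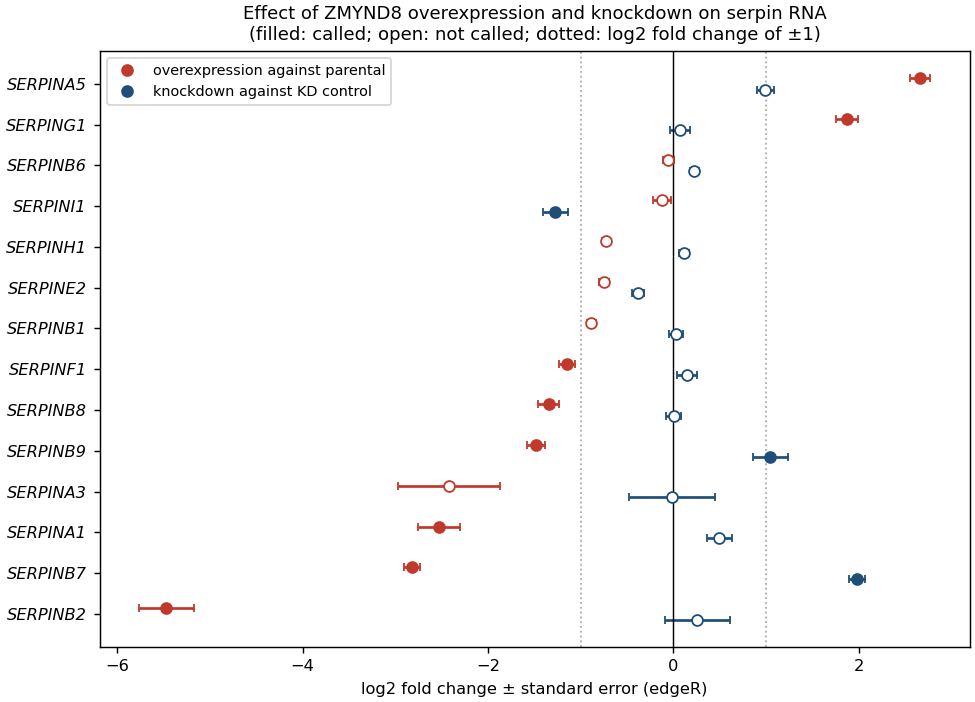
Log2 fold changes (points) with standard errors (bars) of the 14 tested serpins in overexpression against parental (red) and knockdown against KD control (blue). Filled points were called and open points not, and SERPINB7 and SERPINB9 have filled points on opposite sides of 0.

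In the comparison of ZMYND8 knockdown with KD control cells few serpins were called. SERPINB7 and SERPINB9 rose and SERPINI1 fell, so that 2 of the 14 tested serpins were called higher, 1 lower and 11 not, against 1.36% of all 19789 genes tested called higher and 0.596% called lower. The median log2 fold change was 0.13 over the 14 serpins and -0.01 over all genes tested. A further 4 serpins had an adjusted p below the threshold without reaching the fold of a call, namely SERPINA5, SERPINA1 and SERPINB6 with higher levels and SERPINE2 with a lower level in knockdown.

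SERPINB7 had 1312 and 1125 counts in KD control and 4872 and 4476 in knockdown libraries. Its level rose from 22.6 ± 3.28 to 89.5 ± 5.02 CPM (SD, n = 2), a log2 fold change of 1.99 (SE 0.0863, adjusted p = 3.83e-07, edgeR) or 3.96-fold, and the libraries of the groups lay far apart. SERPINB9 was a low gene in this experiment, with 71 and 101 counts in KD control and 165 and 178 in knockdown libraries, and its level rose from 1.59 ± 0.335 to 3.28 ± 0.189 CPM (SD, n = 2). The log2 fold change was 1.05 (SE 0.190, adjusted p = 0.00254, edgeR), close to the threshold. It became 0.85 without KD control replicate 1 (adjusted p = 0.0141) and 0.99 without ZMYND8 knockdown replicate 2 (adjusted p = 0.000577), which ends the call. SERPINI1 had 429 and 442 counts in KD control and 157 and 191 in knockdown libraries, or 8.16 and 7.99 CPM against 2.998 and 3.67 CPM. Both knockdown libraries were lower by more than the spread within the groups, and the log2 fold change was -1.27 (SE 0.135, adjusted p = 9.04e-05, edgeR), a 2.42-fold decrease. Its neighbour PDCD10, whose span ends 304 bases before that of SERPINI1 and which is read from the opposite strand, away from it, had a log2 fold change of -0.19 (SE 0.0664, adjusted p = 0.0650, edgeR).

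SERPINA5 had 436 and 473 counts in KD control and 847 and 904 in knockdown libraries, or 8.42 ± 0.178 against 16.8 ± 0.836 CPM (SD, n = 2). Its log2 fold change of 0.995 (SE 0.0901, adjusted p = 3.22e-05, edgeR) lay just under the threshold and passed it without KD control replicate 2, at 1.02, or without ZMYND8 knockdown replicate 1, at 1.04. It also passed with no filter on low counts and with the trend over gene length, or those over length and GC content, taken out (1.00 to 1.02). SERPINA5 thus had higher levels in overexpression than in parental cells and also higher levels in knockdown than in KD control cells.

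SERPINE2 had 5138 and 4710 counts in KD control and 3676 and 3644 in knockdown libraries, with a log2 fold change of -0.38 (SE 0.0641, adjusted p = 0.00168, edgeR). SERPINA1 had 383 and 544 counts against 660 and 600, and its log2 fold change of 0.50 (SE 0.136, adjusted p = 0.0234, edgeR) became 0.30 with an adjusted p of 0.119 without KD control replicate 1. SERPINB6 had 3738 and 3712 counts against 4196 and 4248, with a log2 fold change of 0.23 (SE 0.0512, adjusted p = 0.00832, edgeR). These are small differences beside those of SERPINB7 and SERPINI1.

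The other 7 tested serpins had adjusted p values from 0.138 to 0.991 in knockdown. SERPINH1 had 11665 and 11660 counts in KD control and 12433 and 11974 in knockdown libraries, and SERPINB1 had 1213 and 1146 against 1143 and 1192. SERPINB8 had 1203 and 1098 counts against 1126 and 1105, SERPINF1 929 and 1156 against 1013 and 1221, and SERPING1 365 and 421 against 403 and 395. SERPINB2, far lower in this experiment than in parental cells, had 18 and 33 counts in KD control and 25 and 34 in knockdown libraries, and SERPINA3 15 and 10 against 12 and 12. Apart from SERPINH1, whose counts were slightly higher in both knockdown libraries, the counts of each of these genes overlapped between the groups.

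The difference of the effects, overexpression minus parental against knockdown minus KD control, was tested on the 8 libraries together. It was called for 9 of the 14 tested serpins, 3 of them higher and 6 lower, against 11.1% of all 22619 genes tested called higher and 7.66% called lower. The median difference was -1.11 on the log2 scale over the 14 serpins and 0.06 over all genes. The largest difference relative to its error was that of SERPINB7, at -4.81 (SE 0.137, adjusted p = 1.23e-12, edgeR). The difference was -5.74 (SE 0.503) for SERPINB2, and -5.19 or -6.45 without ZMYND8 overexpression Dox replicate 1 or 2. It was -3.03 (SE 0.262) for SERPINA1, -2.53 (SE 0.199) for SERPINB9, -1.35 (SE 0.136) for SERPINB8 and -1.30 (SE 0.148) for SERPINF1. It was positive for SERPING1 at 1.80 (SE 0.166), for SERPINA5 at 1.66 (SE 0.142) and for SERPINI1 at 1.15 (SE 0.167). For SERPINB7, SERPINB9 and SERPINA1 the effects of overexpression and knockdown had opposite signs, each at an adjusted p below the threshold. For SERPINB2, SERPINB8, SERPINF1 and SERPING1 the adjusted p in knockdown was above the threshold, and for SERPINI1 that in overexpression was.

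On chromosome 18 the log2 fold change in overexpression went from -2.82 for SERPINB7 through -5.47 for SERPINB2 to -1.35 for SERPINB8, and in knockdown from 1.99 through 0.26 to 0.00. The 3 tested serpins of this cluster thus all fell in overexpression but only SERPINB7 was called in knockdown. On chromosome 14, SERPINA1 and SERPINA5 were called in opposite directions in overexpression. The protein-coding genes within 500 kb of the clusters that are not serpins are read against the 11.8% of all genes tested called higher and 6.84% called lower in overexpression. On chromosome 18 edgeR and DESeq2 called none of 4 tested neighbours in either comparison, with 4 at an unadjusted p below 0.05 in overexpression and 3 in knockdown. On chromosome 3 they called none of 3, with 1 and 3 at an unadjusted p below 0.05. On chromosome 6, 2 of 9 tested neighbours were called higher in overexpression, SLC22A23 (log2 fold change 3.87) and TUBB2B (1.27), while SERPINB9 fell. On chromosome 14, GSC (1.71) was called higher and DDX24 (-2.71) lower among 6 tested neighbours, and on chromosome 17, RTN4RL1 (3.54) higher and HIC1 (-1.58) lower among 16. DDX24 had 719 and 512 counts in parental and 138 and 63 in overexpression libraries (SE 0.281). The size of its decrease is thus uncertain, and its sequence on alternate contigs was not examined. In knockdown edgeR called 1 neighbour lower, IFI27L2, among 8 tested on chromosome 14, and DESeq2 called none there. Over all genes tested in knockdown 1.36% were called higher and 0.596% lower. IFI27L2 had 292 and 8 counts in KD control and 12 and 2 in knockdown libraries, so that the second KD control library lay between the knockdown libraries. Without KD control replicate 1 its log2 fold change was -0.11 and the call was lost.

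**Figure D4:**
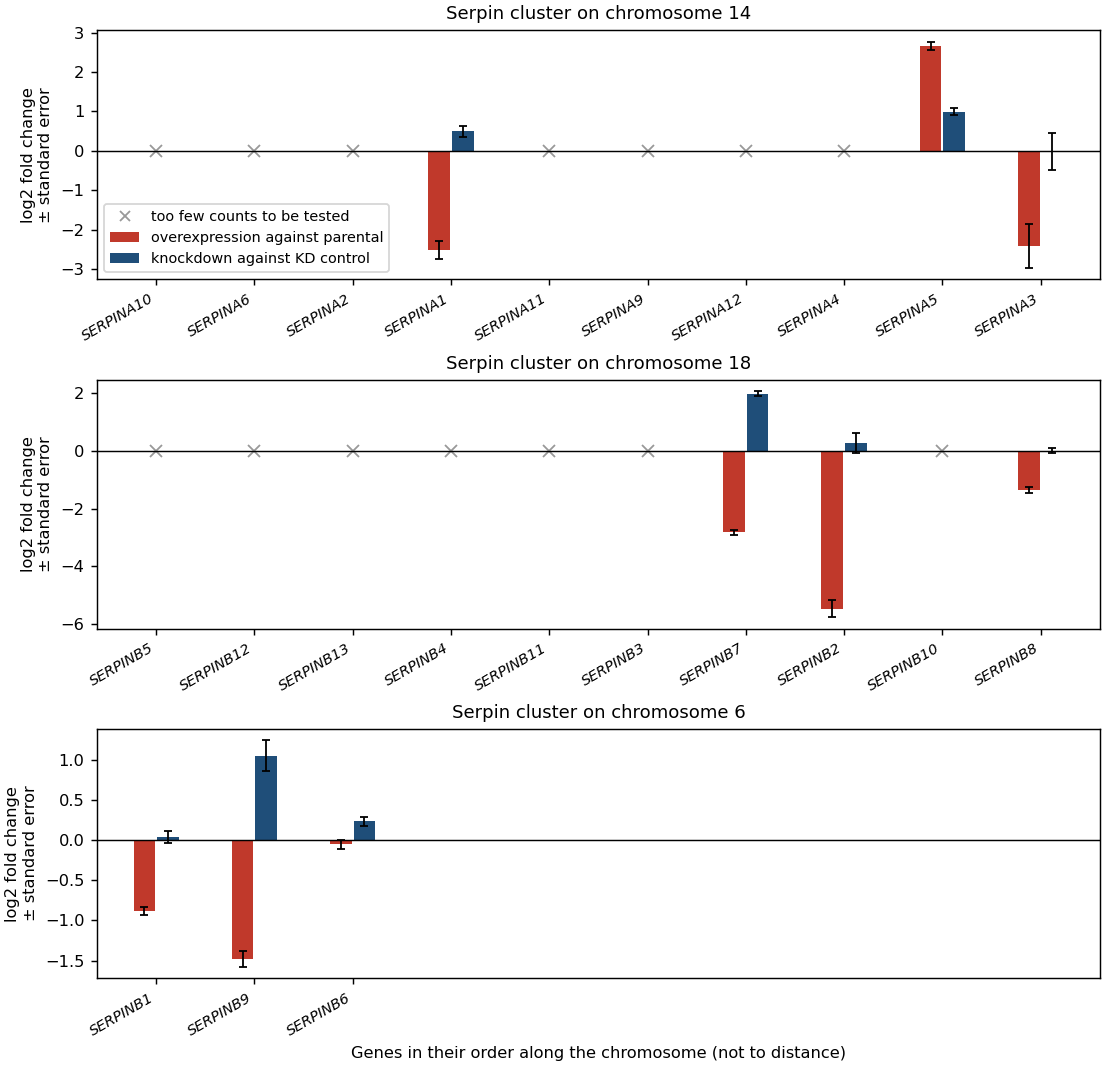
Log2 fold changes with standard errors (edgeR) of the serpins in the clusters on chromosomes 14, 18 and 6, in gene order and not to distance. Crosses mark serpins with too few counts to be tested. SERPINB7, SERPINB2 and SERPINB8 all have bars below 0 in overexpression.

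The proteases that serpins inhibit were counted from a list of 28 genes, 13 of them tested in overexpression, where 3 were called higher and 2 lower, against 11.8% and 6.84% of all genes tested. PLAT and PLAU, the plasminogen activators, were the ones that fell. PLAT (tissue-type plasminogen activator) had 138144 and 174061 counts in parental and 24572 and 17602 in overexpression libraries, a log2 fold change of -2.94 (SE 0.0699, adjusted p = 1.87e-10, edgeR). PLAU (urokinase) had 34132 and 45857 parental counts against 8321 and 5294, a log2 fold change of -2.61 (SE 0.104, adjusted p = 6.91e-09, edgeR). In knockdown PLAT was lower by less than a call, with a log2 fold change of -0.69 (SE 0.0629, adjusted p = 3.46e-05, edgeR), and PLAU had -0.17 (SE 0.0670, adjusted p = 0.0925, edgeR). PLG, the gene of plasminogen, had 0 counts in every library.

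The called proteases that rose in overexpression were CTSV, a lysosomal cathepsin (log2 fold change 1.52, SE 0.126), and the coagulation factors F10 (1.45, SE 0.155) and F12 (1.13, SE 0.114). MASP1, a complement protease that SERPING1 inhibits, had 0 and 0 counts in parental and 40 and 36 in overexpression libraries, and its mean was too low for a call. Of the other SERPING1 targets, F12 was called higher as given above, while C1R and C1S had log2 fold changes of -0.44 (SE 0.0812, adjusted p = 0.000887, edgeR) and -0.31 (SE 0.0822, adjusted p = 0.00737, edgeR) in overexpression, and of -0.84 and -0.89 in knockdown, without a call. FURIN, the protease that SERPINB8 inhibits, had -0.79 (SE 0.0653, adjusted p = 1.90e-06, edgeR) in overexpression, also under the fold of a call. In knockdown neither edgeR nor DESeq2 called a protease of the list, and 5 of 12 tested had an unadjusted p below 0.05.

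Serpin-protease complexes are taken up and cleared by endocytic receptors of the cell surface. In a list of 9 such receptors and partners, all tested, 3 were called higher and 1 lower in overexpression, against 11.8% and 6.84% of all genes tested, and in knockdown edgeR and DESeq2 called none, with 4 of 8 tested at an unadjusted p below 0.05. VTN, which encodes vitronectin, an adhesive protein of plasma and matrix, had 46 and 51 counts in parental and 833 and 712 in overexpression libraries, a log2 fold change of 3.95 (SE 0.129, adjusted p = 1.67e-09, edgeR). LRP2 (megalin) was at 0 counts in each parental library against 393 and 308 in overexpression libraries, and VLDLR rose by 1.46 on the log2 scale (SE 0.0685). PLAUR, the urokinase receptor, fell by 1.13 (SE 0.0952). LRP1, the main clearance receptor of these complexes, had a log2 fold change of -0.60 (SE 0.0678, adjusted p = 2.26e-05, edgeR) and was not called.

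Inhibitors of other families moved in both directions. Of 33 listed, 20 were tested in overexpression, where 5 were called higher and 2 lower, against 11.8% and 6.84% of all genes tested, and the median log2 fold change was 0.16. WFDC2 had 2 and 3 counts in parental and 101 and 76 in overexpression libraries, A2M, the broad inhibitor alpha-2-macroglobulin, 2 and 7 against 81 and 62, and SPOCK3 25 and 32 against 173 and 120. Those called lower were TFPI, the inhibitor of the tissue factor pathway, with a log2 fold change of -2.86 (SE 0.132), and CD109, a membrane relative of A2M, with -1.48 (SE 0.0476). In knockdown edgeR and DESeq2 called none, and 7 of 16 tested had an unadjusted p below 0.05.

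The collagen folding and processing genes that act beside SERPINH1 were all tested. Of these 24 genes, 2 were called higher and 4 lower in overexpression, against 11.8% and 6.84% of all genes tested, with a median log2 fold change of -0.66, near the -0.73 of SERPINH1. COLGALT2, a collagen galactosyltransferase, fell by 2.09 (SE 0.0677), and the prolyl hydroxylase subunits P4HA3 and P4HA2 fell by 2.03 (SE 0.175) and 1.36 (SE 0.0504) on the log2 scale. ADAMTS2, which removes the amino-terminal propeptide of procollagen, rose by 4.31 (SE 0.0893), and PLOD2, a lysyl hydroxylase, rose by 1.47 (SE 0.205). In knockdown edgeR and DESeq2 called none, with 15 of the 24 at an unadjusted p below 0.05 and a median log2 fold change of 0.22. The difference of effects was called higher for 1 of the 24 and lower for 9, against 11.1% and 7.66% of all genes tested for it.

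**Figure D5:**
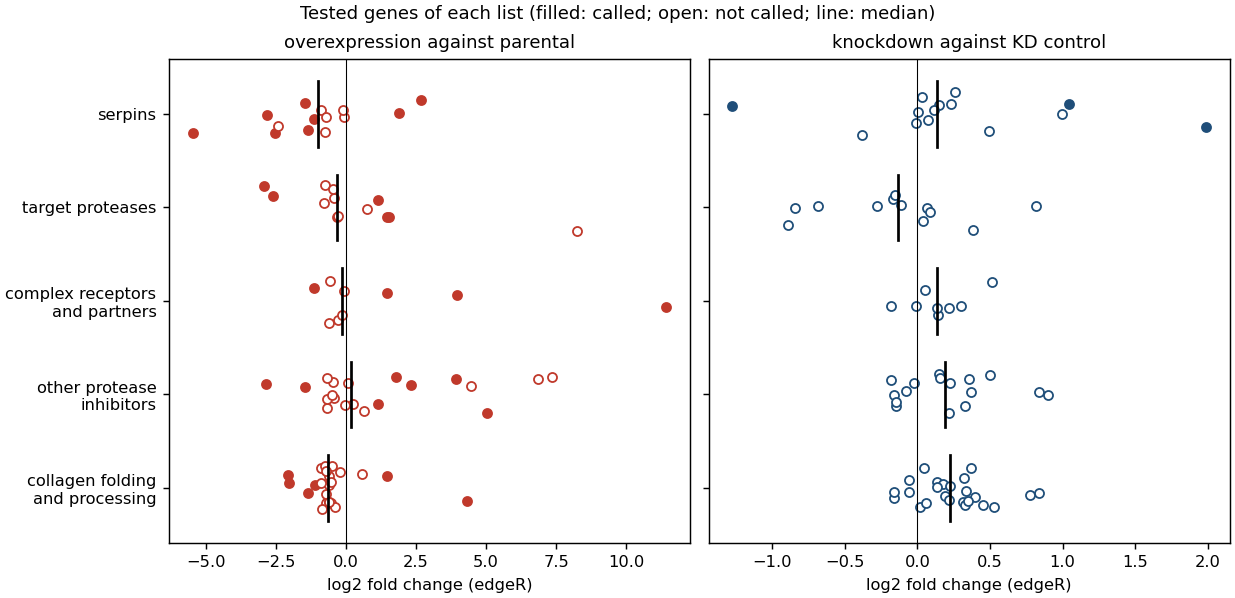
Log2 fold changes (edgeR) of the tested genes of each list in overexpression (left) and knockdown (right), with filled points for called genes and lines at the medians. The serpin median is -1.015 in overexpression and 0.13 in knockdown, and the points farthest to the right, such as LRP2, have few or no counts in parental libraries, so their positions depend on the fit.

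The control groups of the experiments also differed in serpin levels, which cannot be told apart from the experiments themselves, since parental cells received doxycycline and KD control cells did not. In CPM the parental mean was 11.97 times the KD control mean for SERPINB2, 9.68 times for SERPINB9, 5.74 times for SERPINF1, 4.47 times for SERPINB7 and 3.42 times for SERPINB1. It was 2.41 times for SERPINE2, 1.87 times for SERPINI1, 1.53 times for SERPINH1 and 1.39 times for SERPINB6. The KD control mean was the higher one for SERPINA1 by 2.94 times, SERPINA5 by 2.74 times, SERPING1 by 2.20 times and SERPINB8 by 1.60 times. SERPINB7 thus stood at 101 CPM in parental and 89.5 CPM in knockdown cells, and at 14.2 CPM in overexpression and 22.6 CPM in KD control cells, and its effects started from unequal controls.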

How the data were processed

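Total RNA of SK-N-SH cells was sequenced in 8 libraries, mapped to groups by the titles and treatments in the labels. The authors deposited raw counts, whole reads per gene. Their methods give trimming with Trim_Galore, a Phred cut-off of 25, alignment to GRCh38 with HISAT2 and counting by featureCounts against GENCODE release 28, although identifiers in the table may postdate that release, so the annotation behind the counts, on which exon lengths and overlaps rest, is uncertain. The strand setting was not given in the sources used here, so overlapping genes are uncertain, as are genes on alternate contigs. Of 60662 lines, 3 of a gene split over several lines were left out. Coordinates and exon lengths are those of the table, and symbols come from GENCODE release 44. All replicate pairs differed by more than counting noise (chi-square per degree of freedom 6.05 to 8.86). The p-values set the difference between groups against the spread within such pairs, which edgeR estimates in part from all genes.

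Counts were filtered with filterByExpr, normalised with TMM and compared by the two-sided quasi-likelihood test of edgeR 4.0.16 (with limma 3.58.1 in R 4.3.3), each comparison on its own 4 libraries and the difference of effects on all 8. The biological coefficient of variation was 0.0565 to 0.0613. The fit was tested on simulated data. The mean threshold follows the methods, whose fold change cut-off was read as 1 on the log2 scale and whose p-value is not said to be adjusted. CPM are TMM-normalised over all 8 libraries. The serpins and the lists of proteases, receptors, inhibitors, collagen genes and markers were chosen with earlier results of these data known, so no p-value was computed over a list. Of the genes these rules take in, 1 serpin and 1 other gene are not reported here. Named serpins were those called in any test or at 1 TPM or more in any group, 13 in all, with SERPINA3 added after its values were seen. In each list the genes named were up to 3 called in each direction by size of change in overexpression, and PLG, LRP1, FURIN, C1R, C1S, MASP1, PDCD10, HMSD, CSF1R and the keratins were named after their values were seen. Alternatives were other normalisations, 1 fit over all 8 libraries, DESeq2 (version 1.42.0), unfiltered counts, other thresholds, taking out the gene length trend, a replicate block and leaving out each library. Taking out the trends over length and GC was added after seeing the data.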

Additional observations from a re-analysis of the deposited data

How the results depend on the processing

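The 8 serpins called in overexpression were the same under RLE and upper quartile normalization, DESeq2, no filter, all 8 libraries in 1 fit, the gene length correction and without each library. A mean above 100 left 7, dropping the fold threshold gave 11, and taking out trends over gene length and GC content without recentring, which shifted the median of all genes by -0.363 and turned the share of higher calls from 63.2% to 40.5%, added SERPINB1 and SERPINH1 for 10. Without a fold threshold 7 serpins passed in knockdown, 5 higher and 2 lower, and 10 were lower in the difference of effects. Leaving out each library in turn, knockdown had 1 to 3 serpins called higher and 2 to 4 called in all, since SERPINB9 was lost without KD control replicate 1 or ZMYND8 knockdown replicate 2 and SERPINA5 was gained without KD control replicate 2 or ZMYND8 knockdown replicate 1. SERPINA5 was also gained with no filter and with the gene length trend, or length and GC trends, taken out, each giving 4. The replicate block gave 8, 3 and 9 called serpins in overexpression, knockdown and the difference of effects, as without it, and with the gene length correction 8 and 4, which added SERPINA5 in knockdown. The deviations of replicates with the same number had correlations of 0.0532 and 0.0952 over genes. With a single such deviation per group, these values cannot settle whether the numbers pair the libraries. Signs turned only for serpins near 0. Without each library in turn, the log2 fold change in knockdown ranged from -0.03564 to 0.1111 for SERPINB1, from -0.07731 to 0.728 for SERPINB2 and from -0.08932 to 0.1072 for SERPINB8, and in overexpression from -0.1285 to 0.02166 for SERPINB6 and from -0.2369 to 0.001476 for SERPINI1. SERPINB8 in knockdown also had -9.659e-05 with all 8 libraries in 1 fit and -0.01311 with upper quartile normalization, SERPINB6 in overexpression 0.02214 with upper quartile normalization, and SERPINI1 in overexpression 0.05797 with length and GC trends taken out and the median kept. The adjusted p of SERPINA1 in knockdown was 0.1125 with no filter. Of the values of single serpins under alternatives, 503 kept their direction and their side of the adjusted p threshold of 0.05. A further 10 changed sign, 4 no longer had an adjusted p below that threshold and 3 newly had one. The fold and mean thresholds of a call were not part of this tally. The calls of SERPINB9 lost and of SERPINA5 gained in knockdown through the fold are thus among the 503. Beyond these constructions the causes were not tested. With 2 libraries a group, a fit without 1 library assumes that the lone sample varies like the others, and for serpins with few counts, such as SERPINB2 in knockdown, the depth limits what can be shown.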

Other observations

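Among the genes with a serpin symbol that are not protein-coding, 7 in all, SERPINB9P1 on chromosome 6, annotated as a long non-coding RNA, had ample counts. It had 166 and 225 counts in the parental, 120 and 113 in the overexpression, 26 and 23 in the KD control and 45 and 40 in the knockdown libraries. The order of these counts over the groups was that of SERPINB9, which had 655 and 792, 294 and 241, 71 and 101, and 165 and 178 counts. The strand setting of the counting was not given, and no test of SERPINB9P1 was made here. SERPINH1P1 had at most 2 counts in a library, and the other 5 had 0 counts in every library.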
